A study of Mus musculus with 6 samples.

Results

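Heat shock proteins and J-proteins are the chaperones that keep the proteins of a muscle fibre folded. Their transcripts were followed in the fast-twitch extensor digitorum longus (EDL) of the hindlimb in mice lacking Akt1 and Akt2 in muscle fibres. The members were chosen by gene symbol. They were all heat shock genes of the series Hspa, Hspb, Hsph and Hsp90, all J-protein genes of the series Dnaja, Dnajb and Dnajc, and Cryab, Hsf1, Hsf2, Bag3, Stip1 and Chordc1. The chaperones Hspa5, Hspa9, Hspd1, Hspe1, Hsp90b1, Dnajb9 and Dnajc3, which reside in organelles, were left out, as was the matrix proteoglycan Hspg2. In all, 71 of the 24411 genes in the table were members, 9 of them small heat shock proteins and 62 others. Although the set was meant to be cytosolic, 17 of its J-proteins act in mitochondria, in the endoplasmic reticulum or in other membranes according to a list drawn up for this comparison, and Hspa13 is a chaperone of the endoplasmic reticulum, so the set is called by its rule.

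RNA sequencing compared 3 mAktDKO mice with 3 control floxed mice, all of the C57BL/6J strain and 50 weeks old. The mAktDKO mice carried Mlc1f-Cre and floxed alleles of Akt1 and Akt2, and the control floxed mice carried the same floxed alleles, so that the Cre allele and the loss of Akt came together in 1 group and cannot be told apart. The recombinase was driven by Mlc1f, a myosin light chain gene of fast fibres, so that slow fibres and the other cells of the muscle were not its main target. The control columns of the table are numbered 2 to 4, and these numbers name the control mice below.

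Small heat shock proteins bind unfolding proteins without using ATP and, in muscle, sit on the Z-disc and on intermediate filaments. HSP70 and HSP90 fold such proteins in cycles of ATP hydrolysis. J-proteins bring clients to HSP70 and start its ATP hydrolysis, HSP110 proteins exchange its nucleotide, and heat shock factor 1 switches on many of these genes when proteins unfold.

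Each library held between 13738795 and 15445523 estimated counts, so that 3 counts, the smallest level that this depth shows, lay between 0.180 and 0.227 CPM (counts relative to the library total after TMM scaling). This floor covers counting error only. The targeted gene Akt2 had 51.3, 49.1 and 52.7 CPM in mAktDKO EDL and 172, 133 and 143 CPM in control EDL, a log2 change (mAktDKO minus control) of -1.55 (standard error, SE, 0.11, adjusted p = 0.000923, edgeR's quasi-likelihood test). Akt1 had between 51.4 and 58.9 CPM in mAktDKO EDL and between 65.5 and 66.5 CPM in control EDL (log2 fold change -0.25, edgeR adjusted p = 0.115). As counts cover whole genes and the whole muscle, reads from outside a deleted exon and from cells without the recombinase may remain in these values. The part of each was not tested. The samples had the markers of fast muscle, with 9 fast-fibre genes summing to between 105973 and 131631 CPM in a mouse and 8 slow-fibre genes to between 617 and 1328 CPM. A library of each genotype stood apart in some of the members. In mAktDKO mouse 3, 38 of the 12892 genes tested (0.295%) were at least 2 times the mean of mAktDKO mice 1 and 2, and 3 of the 62 members tested were among them, so the values without this mouse are given beside the results that rest on it. In control mouse 2 the mean log2 level of the 8 small heat shock proteins tested, as log2(CPM + 0.5), was 6.48, against 6.15 and 6.10 in control mice 3 and 4, and 6 fibroblast markers summed to 10845 CPM, against 23176 and 27131 CPM. The part of this in the results was not tested.

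Of the 71 members, 62 passed edgeR's filter on low counts and were tested between the genotypes. At a Benjamini-Hochberg adjusted p under 0.05 in edgeR's quasi-likelihood test, 1 member, Cryab, passed and was lower in the mAktDKO mice, against 1.18% of all genes tested. At 0.01, the threshold of the study's methods, 0 members passed, against 0.0233% of all genes, while 16 members (25.8%) had an unadjusted p under 0.05, against 24.5% of all genes, and DESeq2's Wald test gave Cryab and Hspb2 adjusted p values of 2.05e-05 and 0.00293. DESeq2 called 4 of the 59 members with an adjusted p at 0.05 (Cryab, Hspb2, Dnaja4 and Dnajc27), against 8.17% of all genes. The mAktDKO and control mice did not overlap for 20 of the 62 members (32.3%), against 31.1% of all genes, which is close to the background. These were divided unequally by direction. Here and below, overlap was judged on TMM-scaled CPM with every mouse, and its split by direction was not computed under other scalings or with mice left out. In 18 members (29.0%) all the mAktDKO mice were under all the control mice, against 16.6% of all genes, and in 2 tested members (3.23%) every mAktDKO mouse lay above, against 14.6%.

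The members' median log2 change was -0.12, against 0.017 over all genes tested. By sign, 45 of the 62 were lower and 17 higher in the mAktDKO mice, and between 41 and 47 were lower when single mice were left out. The median was -0.14 without mAktDKO mouse 3 and -0.071 without control mouse 2. The sign depended on the scaling. With plain library totals, the median of all genes moved to 0.16 and 29 members were lower and 33 higher. Measured against the median of all genes, 47 members lay below it with TMM and with DESeq2's size factors, and 48 with library totals and with upper-quartile scaling. Lower and higher below refer to TMM scaling.

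Of the 8 small heat shock proteins tested, 7 were lower in the mAktDKO mice, at a median log2 change of -0.41, or -0.26 without control mouse 2. With every mouse in the fit, all 8 lay below the median of all genes under each of the 4 scalings. With TMM, 6 lay below it without mAktDKO mouse 2 and 7 without mAktDKO mouse 1 or control mouse 2. All 8 did when any other mouse was left out. In 4 of the 8 (Cryab, Hspb2, Hspb3 and Hspb6) the mAktDKO mice were all below the control mice, against 16.6% of all genes, and 1, Cryab, passed the test, against 1.18%. The summed level of all 9 was 1047, 1229 and 1333 CPM in mAktDKO mice 1 to 3 and 1947, 1442 and 1464 CPM in control mice 2 to 4. All the mAktDKO mice lay below all the control mice, and control mouse 2 was the highest. In whole muscle, fewer cells of a type and less RNA per cell cannot be told apart. The 9th small heat shock protein, Hspb9, a testis gene, reached 0.12 CPM in mAktDKO mouse 2 and was at 0 in the others, below the depth of the libraries.

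Cryab encodes alpha-B-crystallin, a chaperone of desmin and other structural proteins of the sarcomere. It lies on chromosome 9 of mm10, from 50751325 to 50756636 on the forward strand. It had 208, 226 and 259 CPM in mAktDKO mice 1 to 3 and 455, 335 and 349 CPM in control mice 2 to 4. All the mAktDKO mice were lower than the lowest control mouse. Cryab fell to 0.609 of the control level, from 379 ± 65.6 CPM (SD, n = 3) to 231 ± 25.9 CPM (SD, n = 3), a log2 change of -0.72 (SE 0.13, edgeR adjusted p = 0.0474). When each of mAktDKO mice 1, 2 and 3 and control mouse 3 was left out in turn, Cryab was no longer called. Its changes were -0.65, -0.70, -0.82 and -0.80 in that order, with edgeR adjusted p = 0.131, 0.231, 0.111 and 0.0827. Its smallest change, -0.57, was that without control mouse 2, the highest in Cryab, and it was called there (edgeR adjusted p = 0.0437). In the 4 fits where Cryab was not called, 4, 3, 5 and 26 of all genes were called, against 152 with every mouse.

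Hspb2, which binds the myotonic dystrophy protein kinase and forms complexes with Hspb3, shares its locus with Cryab. It runs on the reverse strand from 50751078 to 50752354, and the annotated genes overlap by 1030 bases. Hspb2 had 27.1, 20.2 and 23.7 CPM in mAktDKO EDL and 41.2, 36.0 and 31.9 CPM in control EDL, with no overlap. Its log2 change was -0.62 (SE 0.13, edgeR adjusted p = 0.0557), just short of the threshold. The library kit kept the strand, but the strand setting of the counting is not given in the sources used here, so reads of Cryab and Hspb2 in the shared bases may not have been told apart.

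Hspb3, the partner of Hspb2, had 12, 8.33 and 10.8 CPM in mAktDKO EDL and 15.1, 14.7 and 12.6 CPM in control EDL. The difference was -0.44 on the log2 scale (SE 0.15, edgeR adjusted p = 0.131), and the highest mAktDKO mouse was close to the lowest control mouse. Hspb6, also called Hsp20, had 362, 490 and 458 CPM against 644, 550 and 497 CPM. Here the second mAktDKO mouse came within a few CPM of control mouse 4, and the difference of -0.37 (SE 0.14) had an edgeR adjusted p of 0.148. Hspb7, a cardiac and skeletal muscle protein that binds filamin C, had 155, 232 and 227 CPM against 454, 215 and 278 CPM. Control mouse 2 was far above the other control mice and control mouse 3 lay below 2 of the mAktDKO mice. The log2 fold change of Hspb7 was -0.62 with a standard error of 0.26 (edgeR adjusted p = 0.179), and between -0.84 and -0.27 when single mice were left out.

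The remaining small heat shock proteins showed no such separation. Hspb1, the inducible actin-binding Hsp25, had 115, 93.4 and 161 CPM in mAktDKO EDL and 157, 121 and 132 CPM in control EDL. Its highest value of all was that of mAktDKO mouse 3, and its log2 change was -0.15 (edgeR adjusted p = 0.633) with this mouse and -0.41 (adjusted p = 0.18) without it. With a different mouse left out, the sign of Hspb1 turned, to 0.013. Hspb8, which joins Bag3 in the removal of damaged filamin, had 167, 157 and 194 CPM against 180, 170 and 164 CPM, a log2 change of 0.012 with a standard error of 0.095 (edgeR adjusted p = 0.951). The genotypes overlapped fully. Hspb11, whose product is a subunit of the intraflagellar transport machinery and not a typical chaperone, lay between 0.480 and 1.12 CPM in all mice (log2 fold change -0.23, SE 0.40), with a change of -0.015 without mAktDKO mouse 3, -0.032 without control mouse 2 and -0.44 without control mouse 4. With Hspb11 left out of the family, 6 of 7 small heat shock proteins were lower, with a median of -0.44.

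**Figure D1:**
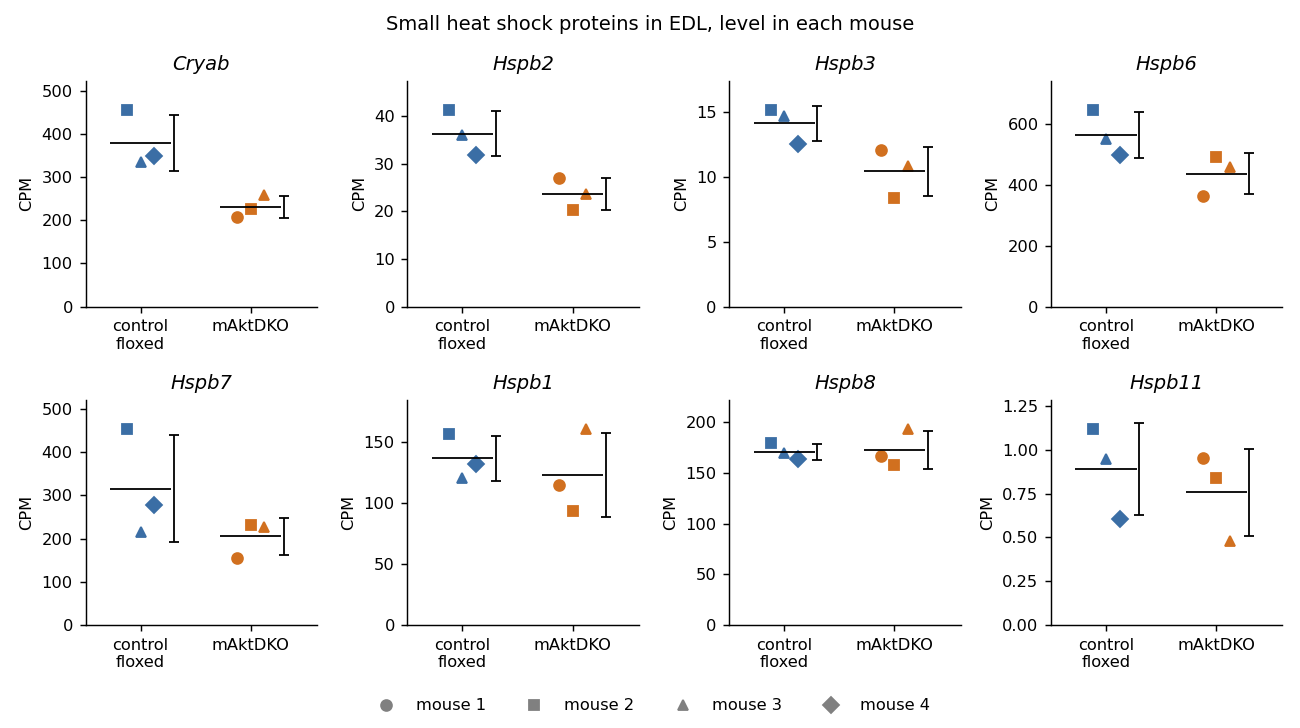
CPM (TMM-scaled) of the 8 small heat shock proteins tested in each control floxed mouse (blue) and each mAktDKO mouse (orange), with the mean as a line, the SD (n = 3) as a bar and every axis from 0. The groups are apart for Cryab, Hspb2, Hspb3 and Hspb6 and overlap for Hspb7, Hspb1, Hspb8 and Hspb11.

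The promoters of the small heat shock proteins were searched for the core of the heat shock element, the DNA motif of heat shock factors, since the set joins heat-inducible and muscle-enriched genes. The motif was sought as GAANNTTC or TTCNNGAA in the 250 bases before each start site in RefSeq (GRCm38.p6). Each pattern is its own reverse complement, so one search covers both strands, and the patterns can share bases. Of 32851 promoter windows, 6.69% held the first, 7.17% the second and 12.8% either. Of the 7 small heat shock proteins with a window (all but Cryab and Hspb2), Hspb1, Hspb3 and Hspb6 held the first pattern and 3 of their 8 windows (37.5%) matched. Hspb1 carried 2 matches, starting 117 and 97 bases before its start site, and Hspb6 carried 1, 120 bases before the second of its start sites. Both are printed below, 5′ to 3′ on the gene's strand, for the last 150 bases before the start site and with the matched bases in capitals. Hspb1 lies at chr5:135887769-135887918 on the forward strand and Hspb6 at chr7:30553151-30553300 on the forward strand. Of this pair, Hspb6 did not overlap between the genotypes and Hspb1 did.
Hspb1: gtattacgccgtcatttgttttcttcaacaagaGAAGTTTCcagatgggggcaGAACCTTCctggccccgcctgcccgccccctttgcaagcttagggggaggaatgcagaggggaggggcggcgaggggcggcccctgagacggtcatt
Hspb6: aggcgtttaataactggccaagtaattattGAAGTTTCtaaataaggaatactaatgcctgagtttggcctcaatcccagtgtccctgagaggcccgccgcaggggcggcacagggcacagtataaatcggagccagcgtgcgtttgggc

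The inducible HSP70 genes had higher means in the mAktDKO mice, but neither passed the test and mouse 3 was the highest for both. Hspa1a and Hspa1b encode nearly identical heat-inducible HSP70 proteins and lie 9951 bases apart on chromosome 17. Hspa1a had 16.4, 9.34 and 65.7 CPM in mAktDKO mice 1 to 3 and 11.7, 11.7 and 10.2 CPM in control EDL. The highest was mAktDKO mouse 3, mouse 1 was also above every control mouse, and mouse 2 was below every control mouse. Hspa1b had 9.70, 9.64 and 34.5 CPM in mAktDKO EDL and 6.08, 7.22 and 6.80 CPM in control EDL. Here every mAktDKO mouse was above every control mouse, and mouse 3 was again far above the rest.

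The log2 changes were 1.44 for Hspa1a (SE 0.60, edgeR adjusted p = 0.185) and 1.41 for Hspa1b (SE 0.47, adjusted p = 0.125). Neither passed the test. Without mAktDKO mouse 3 they were 0.19 (adjusted p = 0.652) and 0.51 (adjusted p = 0.144). RSEM divides reads that fit both genes between them, so their separate values are uncertain. The sum of their counts gave a log2 change of 1.43 (edgeR adjusted p = 0.152). Hspa1l, the testis-enriched relative that starts 546 bases from Hspa1a on the opposite strand, did not share the high value. It had 16.7, 18.2 and 23.2 CPM in mAktDKO EDL and 31.0, 20.3 and 23.7 CPM in control EDL, and this gene was looked at for its place and not by the rule for named genes.

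Dnajb1, the J-protein that works with inducible HSP70, had 9.57, 9.58 and 31.9 CPM in mAktDKO EDL and 7.27, 11 and 9.0 CPM in control EDL. Mouse 3 was above every control mouse, and mice 1 and 2 lay within the range of the control mice. Its log2 change was 0.90 (SE 0.44, edgeR adjusted p = 0.245) with all mice and 0.060 (adjusted p = 0.876) without mAktDKO mouse 3. In mouse 3 the level was 5.10 times the mean of mAktDKO mice 1 and 2 for Hspa1a, 3.57 times for Hspa1b and 3.33 times for Dnajb1. Among mAktDKO mice, the SD of the log2 level was 1.42, 1.03 and 0.97 for these genes, and the next largest among the members was 0.39 for Hspb1. Of the 14 members listed as heat-inducible, these 3 reached the ratio of 2. The others, among them Hspa8, Hsph1, Bag3, Hsp90aa1 and Dnaja1, did not.

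**Figure D2:**
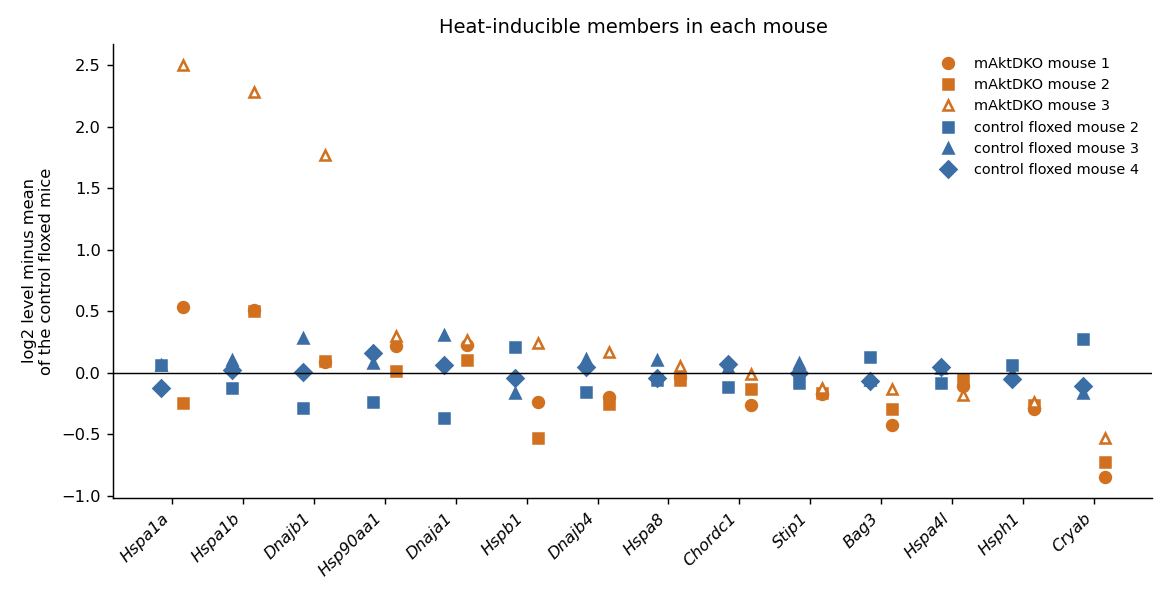
Level of the 14 heat-inducible members in each mouse, as log2(CPM + 0.5) minus the mean of the control floxed mice; orange marks are mAktDKO mice (mouse 3 open) and blue marks are control floxed mice. Mouse 3 is 2.50, 2.28 and 1.77 above the control mean for Hspa1a, Hspa1b and Dnajb1, and for Cryab all 3 mAktDKO mice lie below the control mice.

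Genes that respond within minutes to handling and dissection were compared in the same way. In mAktDKO mouse 3, 4 of 12 such genes, which were Fos, Jun, Egr1 and Atf3, were at least 2 times the mean of mAktDKO mice 1 and 2. Egr1 and Fos had the smallest p of the 12. Egr1 had 71.1, 22.2 and 108 CPM in mAktDKO EDL and 28.6, 19.4 and 6.20 CPM in control EDL. Its log2 change was 1.88 (edgeR adjusted p = 0.108), or 1.35 without mAktDKO mouse 3. Fos had 114, 19.1 and 199 CPM against 54.1, 50.8 and 9.30 CPM. In both genes mAktDKO mouse 1 was also above every control mouse. Atf3, a stress-induced transcription factor, had 19.6, 9.76 and 108 CPM in mAktDKO EDL and 9.998, 27.8 and 11.3 CPM in control EDL. The 12 genes summed to 809, 468 and 1224 CPM in mAktDKO mice 1 to 3 and to 595, 719 and 461 CPM in control mice 2 to 4, and none was at 0. The other 8, such as Junb with 19.0, 9.46 and 12.3 CPM in mAktDKO mice 1 to 3, did not reach the ratio. The part of these 12 genes in the levels of Hspa1a, Hspa1b and Dnajb1 was not tested.

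The promoters of Hspa1a and Hspa1b were identical at 247 of 250 bases (98.8%). Each held GAAGATTC, a match to GAANNTTC, starting 104 bases before the start site. In the windows of Dnajb1, of which the first is printed, neither pattern was found, which says only that these letters are not there. Over the 11 heat-inducible members with a window, 7 of 16 windows (43.8%) held either pattern, against 12.8% of all promoters and 14 of 72 windows (19.4%) of the members. These shares count windows and not separate sites. Windows of a gene can overlap, and the same bases of Hsph1 and of Dnajb6 were counted in more than 1 window. The 3 genes that were high in mouse 3 are printed below in the same way. Hspa1a lies at chr17:34972157-34972306 on the reverse strand, Hspa1b at chr17:34959239-34959388 on the reverse strand and Dnajb1 at chr8:83608025-83608174 on the forward strand.
Hspa1a: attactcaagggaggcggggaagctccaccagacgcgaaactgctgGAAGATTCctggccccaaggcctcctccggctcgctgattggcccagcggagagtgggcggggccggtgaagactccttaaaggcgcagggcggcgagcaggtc
Hspa1b: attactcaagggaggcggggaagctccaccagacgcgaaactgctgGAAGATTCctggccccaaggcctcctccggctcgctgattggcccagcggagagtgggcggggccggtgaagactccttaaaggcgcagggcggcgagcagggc
Dnajb1: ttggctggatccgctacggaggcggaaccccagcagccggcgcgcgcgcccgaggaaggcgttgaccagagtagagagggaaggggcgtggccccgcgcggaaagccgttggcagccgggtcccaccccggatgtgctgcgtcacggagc

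The constitutive chaperones of the cytosol differed little. Hspa8, the constitutive HSP70 of most cells, had 1054, 1035 and 1121 CPM in mAktDKO EDL and 1039, 1160 and 1046 CPM in control EDL, with full overlap and a log2 change of -0.015 (SE 0.089, edgeR adjusted p = 0.931). Hsp90ab1, the constitutive HSP90, had 710, 738 and 824 CPM against 882, 738 and 775 CPM (log2 fold change -0.076, SE 0.10, adjusted p = 0.67). The inducible Hsp90aa1 had 80.0, 69.2 and 84.6 CPM against 58.2, 72.6 and 76.5 CPM. Its log2 change was 0.17 (edgeR adjusted p = 0.389), or 0.063 without control mouse 2 and 0.095 without mAktDKO mouse 3, and the genotypes overlapped. With plain library totals, the signs of Hspa8 and Hsp90ab1 turned, to 0.12 and 0.060.

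In the HSP70 family, 4 of 9 members were lower and 5 higher, at a median log2 change of 0.089, and 0 passed edgeR's test (1.18% of all genes did), 2 (22.2%) had an unadjusted p under 0.05 (24.5% of all genes) and DESeq2 called 0 (8.17%). The direction turned with single mice, to a median of -0.0050 without mAktDKO mouse 1 and -0.035 without control mouse 2, each with 5 lower and 4 higher. Hspa13, the member of the endoplasmic reticulum, had 23.4, 22.4 and 23.0 CPM in mAktDKO EDL and 15.7, 21.2 and 20.5 CPM in control EDL. The mAktDKO mice were nearly equal and all above the control mice, by 0.26 on the log2 scale (SE 0.12, edgeR adjusted p = 0.22), or by 0.14 without control mouse 2, the lowest. Hspa13 and Hspa1b were the 2 tested members with every mAktDKO mouse above. Hspa2, best known from the testis, had between 6.15 and 7.07 CPM in mAktDKO EDL and between 7.03 and 8.53 CPM in control EDL, a log2 change of -0.28 (edgeR adjusted p = 0.236). Hspa12a, Hspa12b and Hspa14 overlapped between the genotypes, with log2 fold changes between -0.012 and 0.13.

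Of the 3 HSP110 proteins, the exchange factors of HSP70, 0 passed edgeR's test, 1 had an unadjusted p under 0.05 and DESeq2 called 0, where the shares of all genes were 1.18%, 24.5% and 8.17%. Hsph1 had 52.6, 53.7 and 54.5 CPM in mAktDKO EDL and 67.3, 64.3 and 62.4 CPM in control EDL. The mice within each genotype were close to one another and the genotypes were apart. The log2 fold change of Hsph1 was -0.27 with a standard error of 0.074 (edgeR adjusted p = 0.0833), and between -0.30 and -0.24 when single mice were left out. Hspa4 had 135, 140 and 140 CPM against 147, 150 and 153 CPM (log2 fold change -0.12, adjusted p = 0.331), and Hspa4l overlapped (log2 fold change -0.12, adjusted p = 0.518). With library totals Hspa4 and Hspa4l turned to 0.021 and 0.020, and all 3 stayed below the median of all genes.

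The listed co-chaperones were lower under every scaling, but with library totals Chordc1 was nearly level (log2 fold change -0.0014) and Bag3 was at -0.15. Bag3, which links HSP70 and Hspb8 to autophagy of damaged sarcomere proteins, had 115, 126 and 141 CPM in mAktDKO EDL and 169, 148 and 148 CPM in control EDL. The groups did not overlap, and the log2 change was -0.28 (SE 0.099, edgeR adjusted p = 0.134). Stip1, the adaptor that hands clients from HSP70 to HSP90, had 51.8, 51.9 and 53.4 CPM against 55.1, 61.8 and 58.4 CPM, a log2 change of -0.16 (adjusted p = 0.242). Its groups did not overlap either. Chordc1, an HSP90 co-chaperone, had 40.1, 43.8 and 47.7 CPM against 44.4, 49.7 and 50.4 CPM (log2 fold change -0.14, edgeR adjusted p = 0.397), and mAktDKO mouse 3 lay above control mouse 2. With single mice left out its change lay between -0.22 and -0.075. None of the 3 passed edgeR's test (1.18% of all genes), 1 had an unadjusted p under 0.05 (24.5%) and DESeq2 called 0 (8.17%).

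The heat shock factors themselves overlapped between the genotypes. Hsf1, the main regulator of the response, had 21.9, 19.9 and 23.0 CPM in mAktDKO EDL and 28.7, 22.1 and 22.0 CPM in control EDL, with a log2 change of -0.17 (edgeR adjusted p = 0.427). Control mouse 2 was the highest, and without it the change was -0.029. Hsf2 lay between 26.5 and 30.5 CPM in all mice (log2 fold change 0.018, adjusted p = 0.924).

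Of the 43 J-protein genes, 35 were tested, and 26 were lower and 9 higher in the mAktDKO mice at a median log2 change of -0.099. In 10 of them (28.6%) every mAktDKO mouse was below every control mouse, against 16.6% of all genes. In 0 of them every mAktDKO mouse was above, against 14.6% of all genes. None passed edgeR's test, 7 of the 35 had an unadjusted p under 0.05, against 24.5% of all genes, and DESeq2 called 2 of 33 (6.06%), against 8.17%. The median was -0.066 without control mouse 2. The counts by sign were 15 lower and 20 higher with library totals, but 27 of the 35 lay below the median of all genes under each of the 4 scalings.

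Dnajc27, which joins a Rab-like GTPase domain to a J-domain, had the smallest p of the J-proteins. It had 69.2, 61.2 and 74 CPM in mAktDKO EDL and 99.3, 86.6 and 86.1 CPM in control EDL. The groups were apart, with a log2 change of -0.41 (SE 0.098, edgeR adjusted p = 0.0646 and 0.0125 from DESeq2). Dnajc11, a mitochondrial protein attached to the complex that shapes the cristae, had 27.1, 29.1 and 29.3 CPM against 36.6, 33.9 and 34.9 CPM. Its mice were close within each genotype, and the log2 change was -0.30 (SE 0.082, edgeR adjusted p = 0.0833). Dnajc7, which binds both HSP70 and HSP90, had 50.5, 51.8 and 52.5 CPM against 59.1, 67.1 and 55.3 CPM, a log2 change of -0.23 (edgeR adjusted p = 0.163) that lay between -0.29 and -0.15 with single mice left out. It shares 8912 bases of its locus with the opposite-strand gene Cnp.

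Among the Dnaja genes, Dnaja4, an HSP70 partner abundant in striated muscle, had 79.6, 90.9 and 95.9 CPM in mAktDKO EDL and 133, 104 and 110 CPM in control EDL. It did not overlap, and its log2 change was -0.38 (SE 0.11, edgeR adjusted p = 0.0992 and 0.0338 from DESeq2). Its promoter held GAANNTTC 90 and 52 bases before the start site. Dnaja3, the J-protein of the mitochondrial matrix, had 88.7, 87.1 and 89.4 CPM against 103, 108 and 90.9 CPM, a log2 change of -0.19 (adjusted p = 0.21). Its groups were apart by little, and its locus overlaps 2 other expressed genes. Dnaja1, a heat-inducible partner of cytosolic HSP70, overlapped (log2 fold change 0.18, edgeR adjusted p = 0.495), and its change was 0.0094 without control mouse 2 and 0.34 without control mouse 3.

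Among the Dnajb genes, Dnajb12 and Dnajb14, which are anchored in the membrane of the endoplasmic reticulum, had the smallest p, and neither passed the test. Dnajb12 had 31.1, 28.6 and 33.1 CPM in mAktDKO EDL and 40.6, 33.2 and 37.6 CPM in control EDL, with mAktDKO mouse 3 almost level with control mouse 3 (log2 fold change -0.26, edgeR adjusted p = 0.159). Dnajb14 had 7.23, 8.15 and 9.26 CPM against 9.16, 10.9 and 11.3 CPM, and overlapped by a single mouse (log2 fold change -0.35, adjusted p = 0.172). Dnajb4, a heat-inducible J-protein, overlapped and had a log2 change of -0.089 (edgeR adjusted p = 0.689), which lay between -0.25 and -0.0094 with single mice left out and turned to 0.040 with library totals. The 16 tested J-proteins of the organelle list had a median of -0.11, with 13 lower, and in 5 (31.2%) every mAktDKO mouse was below every control mouse, against 16.6% of all genes, while in 0 every mAktDKO mouse was above, against 14.6%.

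**Figure D3:**
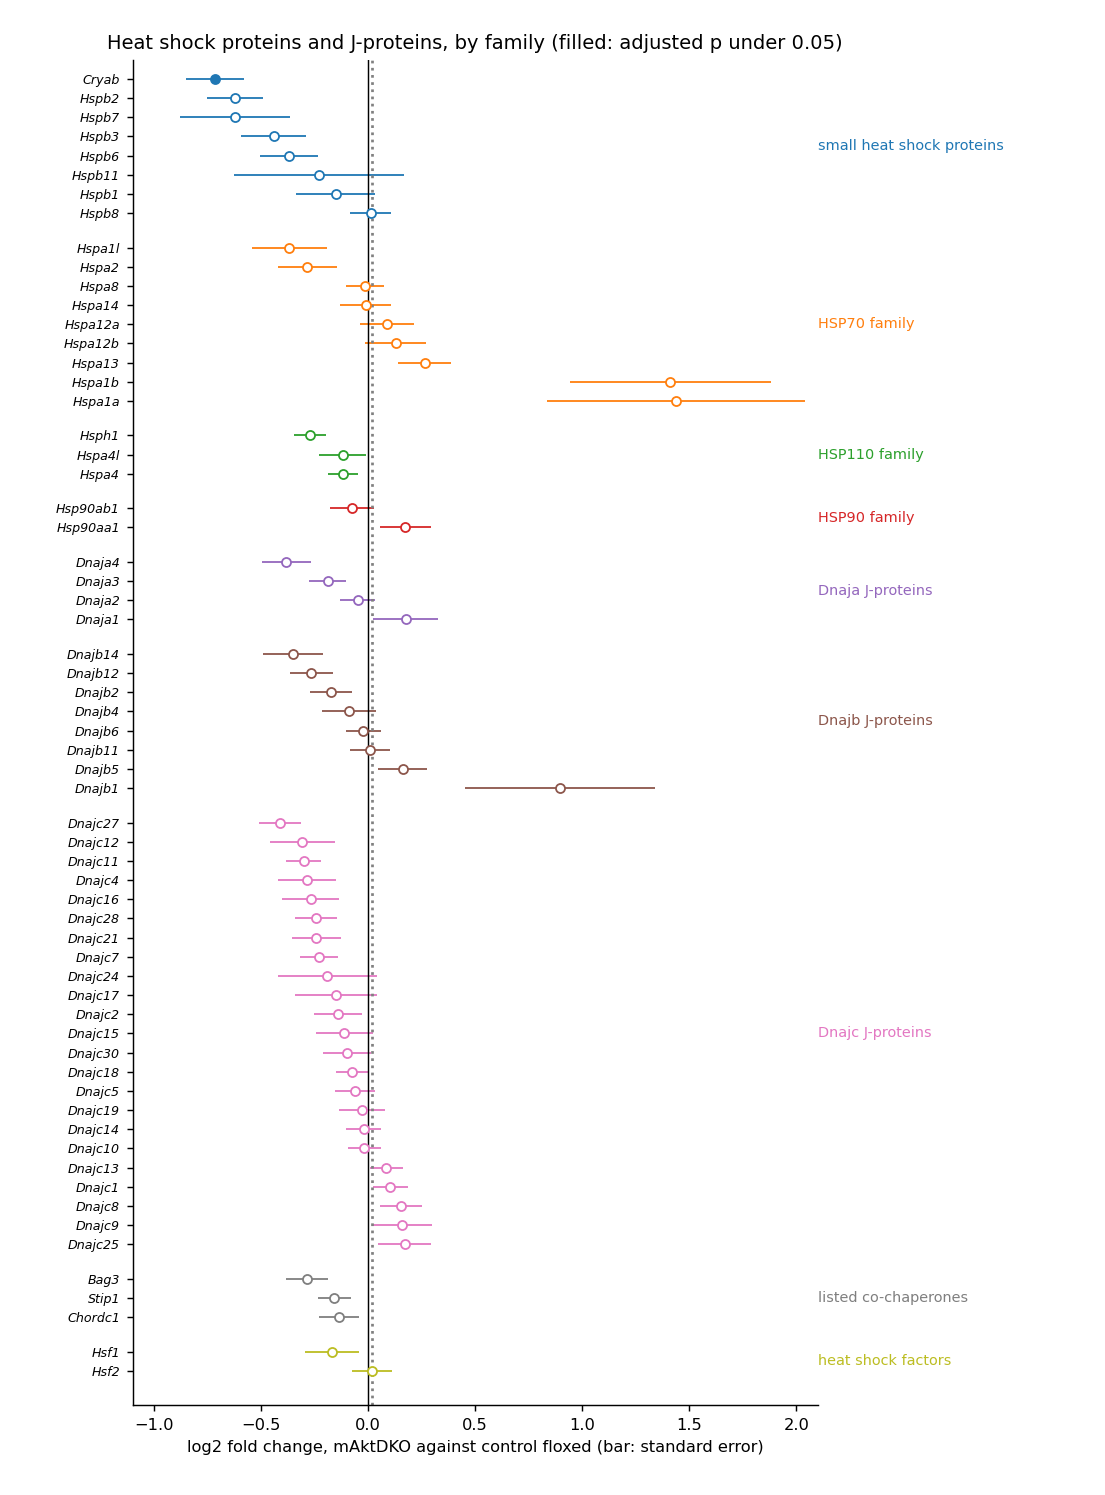
Log2 fold change of the 62 tested members in mAktDKO against control floxed mice by family, with the standard error as a bar, a filled point for an adjusted p under 0.05 and a dotted line at the median of all genes (0.017). Cryab is the only filled point, the 4 lowest points are Cryab, Hspb2, Hspb7 and Hspb3, and Hspa1a, Hspa1b and Dnajb1 lie far to the right with wide errors.

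The members that were not tested had few reads. Dnajb3, Dnajb7, Dnajb8, Dnajb13, Dnajc5b, Dnajc5g, Dnajc22 and Hspb9 were at or near the floor, and Dnajb8, Dnajc5b and Dnajc5g were at 0 in every mouse. Dnajc6, the neuronal auxilin, lay between 0.254 and 0.539 CPM in mAktDKO EDL and between 0.0730 and 0.227 CPM in control EDL, near the floor of 3 counts.

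Levels were compared between genes per kilobase of annotated exon, with the exons of all transcripts of a gene merged. The merged length can exceed that of the transcript made in muscle, so the order of the genes holds for this length only. In the control mice the highest members were Hsp90ab1 with 266 ± 24.9 CPM per kilobase (SD, n = 3), Cryab with 256 ± 44.4, Hspa8 with 251 ± 15.8 and Hspb6 with 245 ± 32.4. On this scale these 4 did not differ beyond their spread. They were followed by Hspb1 with 132 ± 18.0, Hspb7 with 114 ± 44.7, Hspb8 with 87.7 ± 4.10 and Bag3 with 60.5 ± 4.61 CPM per kilobase. Hspb1 and Hspb7 overlapped, and so did Hspb7 and Hspb8. Small heat shock proteins thus took 5 of the first 7 places by this measure. In the mAktDKO mice the level was 253 for Hsp90ab1 and 249 for Hspa8 on this scale, 190 for Hspb6 and 156 for Cryab. The inducible Hspa1a and Hspa1b were at 3.77 ± 0.285 and 2.39 ± 0.206 CPM per kilobase in the control mice.

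**Figure D4:**
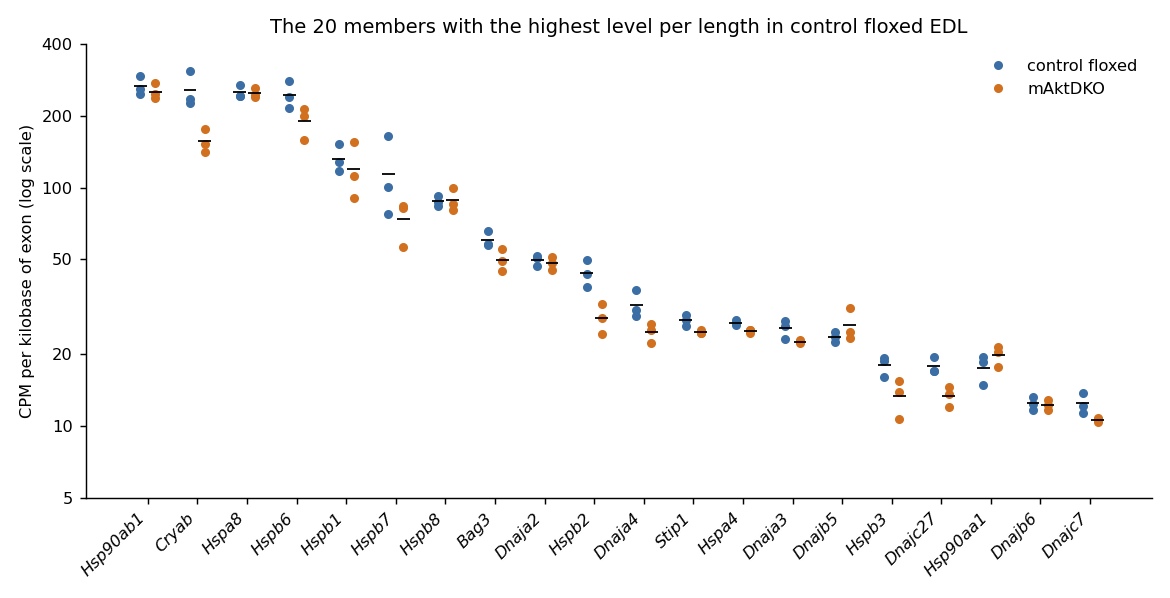
CPM per kilobase of exon, on a log axis, of the 20 members with the highest level in the control floxed mice (blue), beside the mAktDKO mice (orange), with 1 point per mouse and the mean as a line. Hsp90ab1, Cryab, Hspa8 and Hspb6 share the top in the control mice, and of these 4 the colours are apart for Cryab and Hspb6.

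Genes that work with the members were taken from lists of partners. Of 43 partner genes tested, 35 were lower and 8 higher, at a median log2 change of -0.16, or -0.096 without mAktDKO mouse 2. With library totals 25 were lower and 18 higher, at a median of -0.023. Under each of the 4 scalings 37 lay below the median of all genes. The groups did not overlap for 23 (53.5%, against 31.1% of all genes). Of the 43, 20 (46.5%) were lower without overlap, against 16.6% of all genes, and 3 (6.98%) higher, against 14.6%. In edgeR's test 1 partner, Fkbp5 (2.33%), passed, against 1.18% of all genes, and DESeq2 called 6 of 41 (14.6%), against 8.17%. Fkbp5, an HSP90 co-chaperone whose gene responds to glucocorticoids, had 23.0, 29.2 and 34.5 CPM in mAktDKO EDL and 95.9, 55.3 and 75.1 CPM in control EDL. It fell to 0.383 of the control level, a log2 change of -1.38 (SE 0.21, edgeR adjusted p = 0.0315), and was not called without mAktDKO mouse 1, 2 or 3, where its change was -1.24, -1.39 and -1.54 and 4, 3 and 5 of all genes were called.

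Of the 14 HSP90 co-chaperones, 12 were lower, 7 (50.0%) had an unadjusted p under 0.05 in edgeR's test, against 24.5% of all genes, and DESeq2 called 5 (35.7%), against 8.17%. After Fkbp5 the smallest p belonged to the kinase adaptor Cdc37 with 51.0, 48.5 and 47.2 CPM against 61.4, 61.1 and 58.7 CPM (log2 fold change -0.30, edgeR adjusted p = 0.0691). The groups were well apart in this gene. Of the 14 subunits of TRiC and prefoldin, which fold actin and tubulin, 13 were lower with a median of -0.15 and 0 passed edgeR's test (1.18% of all genes), 3 (21.4%) had an unadjusted p under 0.05 (24.5% of all genes) and DESeq2 called 0 (8.17%). Pfdn2 and Cct7 had the smallest p of these (adjusted p = 0.149 and 0.18 from edgeR). With library totals 8 of the 14 TRiC and prefoldin genes were lower and 6 higher, at a median of -0.015. Under each of the 4 scalings 13 lay below the median of all genes. Of the 9 co-chaperones of HSP70 and Hspb1, 5 were lower and 4 higher, led by Bag1 (log2 fold change -0.27) and Hspbp1 (log2 fold change -0.50).

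Chaperone-assisted autophagy, the route on which Bag3, Hspb8 and HSP70 pass damaged filamin to the autophagosome, had 6 of 7 listed genes lower. Flnc, which encodes its client filamin C, had 825, 1019 and 1146 CPM in mAktDKO EDL and 2038, 1253 and 1513 CPM in control EDL. The groups did not overlap, and the log2 change was -0.68 (SE 0.18, edgeR adjusted p = 0.0822 and 0.00158 from DESeq2). Stub1, the ubiquitin ligase of this route, overlapped (log2 fold change -0.30, edgeR adjusted p = 0.188). Of the 7 genes of this route, 0 passed edgeR's test (1.18% of all genes) and DESeq2 called 1 (14.3%, against 8.17%). An unadjusted p under 0.05 was found in 2 (28.6%), against 24.5% of all genes. The 7 organelle chaperones left out of the set, such as Hspe1 and Dnajb9, had a median of -0.045, with 4 lower and 3 higher. In 3 (42.9%) every mAktDKO mouse was below every control mouse, against 16.6% of all genes, and in 1 (14.3%) above, against 14.6%. None passed edgeR's test (1.18% of all genes), and 4 (57.1%) had an unadjusted p under 0.05, against 24.5%.

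Markers of fibre types and of other cells were compared too. Of the 49 genes tested in 8 lists of such markers, 0 passed edgeR's test, against 1.18% of all genes, 22 (44.9%) had an unadjusted p under 0.05, against 24.5% of all genes, and DESeq2 called 7 of 43 (16.3%), against 8.17%. In a further list of 5 blood markers, which were all higher with every mouse in the fit and 4 of which were higher without mAktDKO mouse 1 or control mouse 2, 1 gene, Hbb-bs, passed edgeR's test (adjusted p = 0.018), against 1.18% of all genes. It was not called without mAktDKO mouse 2 or 3 (edgeR adjusted p = 0.0532 and 0.0746), where 3 and 5 of all genes were called, against 152 with every mouse. All 9 fast-fibre markers had a lower mean in the mAktDKO mice (log2 fold changes between -0.59 and -0.018, median -0.22), and their sum was between 105973 and 119097 CPM in mAktDKO EDL and between 122156 and 131631 CPM in control EDL. With library totals 7 of the 9 were lower. Of 8 slow-fibre markers, 7 were higher (median 0.40), with sums of 1135, 1328 and 692 CPM in mAktDKO mice 1 to 3 against 647, 894 and 617 CPM in control EDL. All 6 fibroblast markers were higher (median 0.57), with sums between 27726 and 33632 CPM against 10845 and 27131 CPM. The 6 macrophage markers (median 0.39, sums between 96.3 and 122 CPM against 64.3 and 107 CPM), the 5 adipocyte markers (median 0.88) and the 5 Schwann cell markers (median 0.28) were also higher, while 4 of 6 endothelial markers were (median 0.16). Of 4 satellite cell markers, 3 were higher and 1 lower, and DESeq2 gave an adjusted p to 1 of them, which it did not call. In 2 the genotypes did not overlap, against 31.1% of all genes, Cdh15 with a log2 fold change of -0.42 and Myf5 with 0.59. Single mice moved the medians of some lists. Without control mouse 2 the fibroblast median was 0.27 and the macrophage median 0.17, with 5 of 6 markers higher in each. The slow-fibre median was 0.24 without mAktDKO mouse 2, and without control mouse 3 the macrophage and endothelial medians were 0.61 and 0.26. No marker of these lists was at 0 in every mouse. The part of such differences in the lower level of the small heat shock proteins was not tested.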

How the data were processed

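RNA of EDL muscle from 3 mAktDKO and 3 control floxed mice was analysed. The authors depleted ribosomal RNA, made libraries with a strand-keeping kit, sequenced paired-end reads of 37 bp, aligned them to mm10 with STAR (2.6.1b in the submitters' processing notes) and obtained estimated counts per gene from RSEM 1.3.1. These expected counts were deposited for 24411 genes, not scaled between mice. Between 3.36% and 4.09% of them were not whole numbers in a mouse.

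The expected counts were rounded. Low genes were removed by edgeR's filterByExpr (version 4.0.16, R 4.3.3, minimum count 10), TMM factors were computed, and the genotypes were compared by edgeR's quasi-likelihood test. P-values were adjusted by Benjamini-Hochberg over 12892 genes, and a gene was called at an adjusted p under 0.05. The standard error is the log2 fold change divided by the square root of F. CPM values carry no prior count, and levels per kilobase use the merged GENCODE exons of GRCm38, which is mm10. The steps were tested on simulated data. Each column is taken as 1 mouse, so p-values measure the spread between these mice. The members, lists, named genes and tests were chosen with earlier results of these data known. Named were the small heat shock proteins, the heat-inducible members, Hspa8, Hspa2, Hsp90ab1, Hspa4, Hsf1 and Hsf2, members past the threshold, and in each other family up to the 3 members with the smallest p, with up to 2 genes of each partner or marker list. Genes named for another reason (Hspa1l, Dnajc6, Hspa12a, Hspa12b, Hspa14, Jun, Junb, Atf3, Hbb-bt, Hba-a1 and Alas2) were chosen after their values were seen. Promoters came from RefSeq (GRCm38.p6), where 56 of the 71 members had an entry. The alternatives were DESeq2 1.42.0, other scalings, other filters, an adjusted p under 0.01, the sum of Hspa1a and Hspa1b, and leaving out each mouse.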

Additional observations from a re-analysis of the deposited data

How the results depend on the processing

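Of the 14 alternatives, DESeq2's test brought its own scaling and filter with it, and the others changed 1 choice. Of the 33 named members, 25 kept their direction in every alternative that gave them a value. The number of members called at an adjusted p under 0.05 in edgeR's quasi-likelihood test was 1, against 1.18% of all genes, and it was 4 with DESeq2 (8.17% of all genes), 2 without the filter on low counts (2.19%), 2 with at least 10 counts in every mouse (2.18%), 0 at an adjusted p under 0.01 (0.0233%), and between 0 and 2 when each mouse was left out in turn. It was 0 without each mAktDKO mouse and without control mouse 3, where 10, 11, 18 and 18 members (16.1%, 17.7%, 29.0% and 29.0%) had an unadjusted p under 0.05, against 18.8%, 14.4%, 21.2% and 23.1% of all genes, and 4, 3, 5 and 26 of all genes were called, against 152 with all mice. The small heat shock proteins called were 2 with DESeq2, 2 without the filter, 2 with at least 10 counts, 0 at 0.01, with the same shares of all genes as above, and between 0 and 2 with single mice left out. The partner genes called were 6 with DESeq2, 0 at 0.01 and between 0 and 1 with single mice left out. DESeq2 covered 9616 genes with an adjusted p, and dropping the filter covered 17360.

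With library totals the median of all genes was 0.16 and that of the members 0.021, a difference of -0.14. The members' median lay between -0.14 and -0.071 with single mice left out, and that of the small heat shock proteins between -0.49 and -0.26. Library totals also turned the signs of Dnajb4 (0.040), Hsp90ab1 (0.060), Hspa4 (0.021), Hspa4l (0.020) and Hspa8 (0.12). Leaving out single mice turned those of Hsf2 (-0.045 to 0.070), Hsp90ab1 (-0.16 to 0.00043), Hspa8 (-0.065 to 0.036), Hspb1 (-0.41 to 0.013) and Hspb8 (-0.094 to 0.074). The cause of these turns was not tested. No paired analysis was possible because the labelled replicate numbers could not be given to single control columns, and no source ties the columns' own numbers to a shared litter or day. With totals of about the same size in all mice, the depth limits only the members near the floor of 3 counts.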

Other observations

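Of the blood markers, Hbb-bs, an adult beta-globin gene, had 23.5, 9.23 and 10.01 CPM in mAktDKO mice 1 to 3 and was at 0 in all 3 control mice. It passed edgeR's test (adjusted p = 0.018), but not without mAktDKO mouse 2 or mouse 3 (adjusted p = 0.0532 and 0.0746). In those fits 3 and 5 of all genes were called. The neighbouring adult beta-globin gene Hbb-bt, which is nearly identical in sequence, so that the division of reads between them is uncertain, had 23.1, 16.2 and 9.74 CPM in mAktDKO mice and 13.2, 13.1 and 8.997 CPM in control mice (adjusted p = 0.318). Hba-a2, an alpha-globin gene, had between 25.9 and 97.7 CPM in the control mice and between 103 and 134 CPM in the mAktDKO mice (adjusted p = 0.137). Hba-a1 and Alas2 overlapped between the genotypes (adjusted p = 0.845 and 0.339, all from edgeR).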
